A study of Mus musculus with 6 samples.

Results

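The nuclear genes for subunits of respiratory complexes III and IV and of ATP synthase were examined in mouse embryos of the ICR strain. The members were all rows whose Ensembl identifier maps to a symbol that starts with Uqcr, with Cox and a digit from 4 to 8, or with Atp5, with pseudogenes left out. They numbered 42 of the 29139 genes in the table, with 8 in complex III, 17 in complex IV and 17 in ATP synthase. The MS-444 group was 2-cell embryos kept in KSOM (an embryo culture medium) with 75 µM MS-444, a small molecule reported to inhibit the RNA-binding protein HuR (Elavl1). The DMSO group was embryos of the same strain and stage in KSOM with 0.1% DMSO, the solvent. Each group had 3 libraries, and per the labels 16 embryos were lysed for RNA. Nothing in the labels ties a replicate to its own culture or mother, and the p-values therefore reflect the spread between these libraries, which may be technical.

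Complex III passes electrons from ubiquinol to cytochrome c, and complex IV passes them from cytochrome c to oxygen; both move protons out of the mitochondrial matrix. ATP synthase lets the protons return through its membrane ring and couples their flow to the making of ATP. Each enzyme joins subunits from nuclear genes to subunits encoded by the mitochondrial genome. Early mouse embryos rely on mitochondria inherited from the egg, and much of the RNA of the first cell cycles is maternal as well.

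Library totals ranged from 2637763 to 4695866 counts, with the highest in DMSO replicate 2. The summed level of 10 markers of the 2-cell embryo was 1642 to 2017 CPM (each count as a share of its library, on a common scale) in MS-444 and 1537 to 2234 CPM in DMSO. The 10 oocyte markers summed to 6454 to 9327 CPM in MS-444 and 8415 to 12009 CPM in DMSO. Cumulus and granulosa markers summed to 8.01 to 9.89 CPM in MS-444 and 8.93 to 9.99 CPM in DMSO, and those of spermatozoa and spermatids to 210 to 306 CPM in MS-444 and 233 to 484 CPM in DMSO. Blood markers summed to 12.5 to 26.6 CPM in MS-444 and 3.32 to 8.29 CPM in DMSO, and liver markers to 0.243 to 7.33 CPM in MS-444 and 0.510 to 2.00 CPM in DMSO; their part in the results was not tested. Each marker in the table had a count in at least 1 library.

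Transcripts of 13 members, spread over all 3 enzymes, with the coupling factor Atp5s among them, were higher in MS-444 than in DMSO by edgeR. Those of Uqcrc2, a core protein of complex III, and Cox7a2l, a factor that joins complexes III and IV, were lower. Of the 38 members with enough counts to be tested, 13 rose, 2 fell and 23 did not pass edgeR's quasi-likelihood test at an adjusted p of 0.05. Among all 11864 genes tested, 25.5% passed in either direction, 14.4% higher and 11.1% lower. The log2 fold change, MS-444 over DMSO, was above 0 for 32 members and below 0 for 6, with a median of 0.97 beside 0.02 over all genes tested. The MS-444 libraries all lay above the DMSO libraries for 16 members, against 23.0% of all genes tested. They all lay below for 2 members, against 20.9% of all genes tested. The groups overlapped for the other 20 members. With library totals in place of TMM scaling, 18 members rose and 1 fell, 2179 of all genes rose and 881 fell, and the medians were 1.16 for the members and 0.20 for all genes. Because CPM values are shares of a library, more RNA of a gene and less RNA of other genes, or a different number of cells, cannot be told apart.

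**Figure D1:**
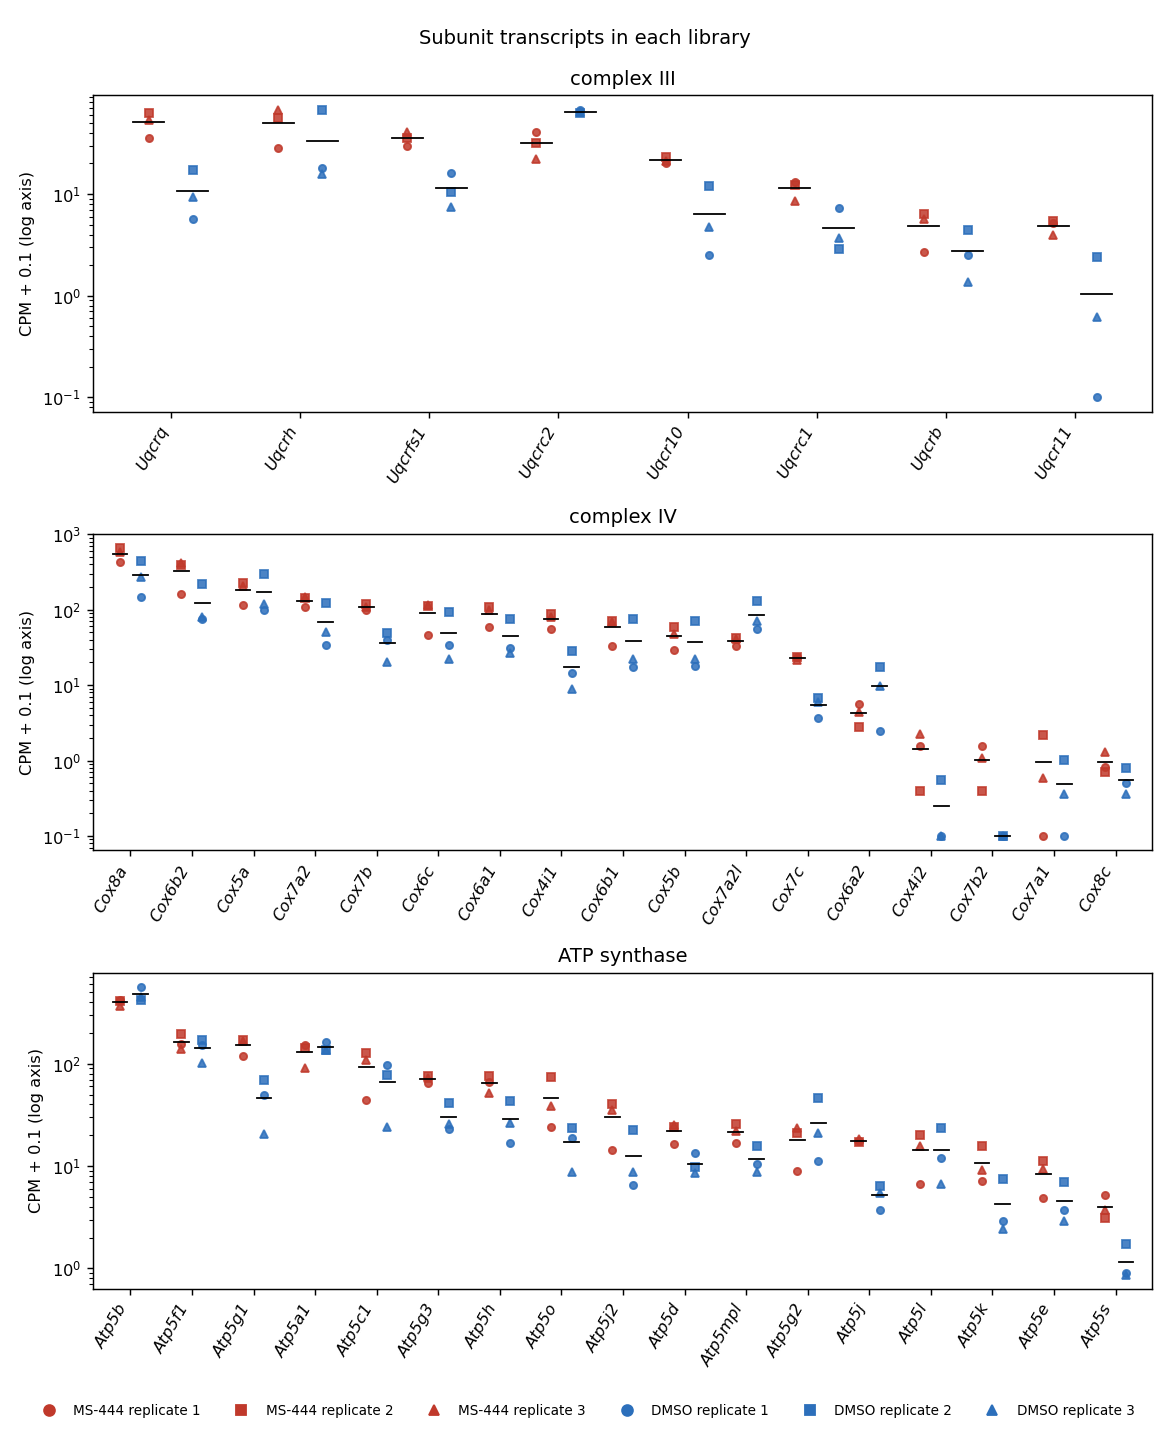
Level of every member in each library, as CPM + 0.1 on a log axis, by complex, with MS-444 libraries left (red) and DMSO libraries right (blue) and black bars for the group means. The MS-444 points stand clear above the DMSO points for Uqcrq, Cox4i1, Cox7c and Atp5j, and clear below for Uqcrc2 and Cox7a2l.

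The libraries did not divide evenly by group. DMSO replicate 2 was the highest DMSO library for 31 of the 38 tested members, against 29.0% of all genes tested. It lay above the lowest MS-444 library for 22 members and above all MS-444 libraries for 9. DMSO replicates 1 and 3 each lay above the lowest MS-444 library for 8 members and above all of them for 4. These positions against the MS-444 libraries were not counted over all genes tested, so they have no background share here. The mean over members of log2(CPM + 0.5), set against the DMSO mean of each gene, was 0.61, 1.19 and 1.02 in MS-444 replicates 1, 2 and 3. It was -0.29, 0.66 and -0.37 in DMSO replicates 1, 2 and 3, so that DMSO replicate 2 lay above MS-444 replicate 1. Without DMSO replicate 2, 22 members rose, 0 fell and the median log2 fold change was 1.56, while the genes that rose numbered 1121 and those that fell 831. Omitting DMSO replicate 1 left 11 members among 2119 genes that rose, and omitting DMSO replicate 3 left 8 among 948. Omitting MS-444 replicate 1, 2 or 3 left 11 members among 1215 genes, 6 among 665 or 5 among 674. Of the 15 calls, 5 held under all 17 alternative settings, those of Uqcrq, Cox4i1, Cox7b, Cox7c and Atp5j.

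**Figure D2:**
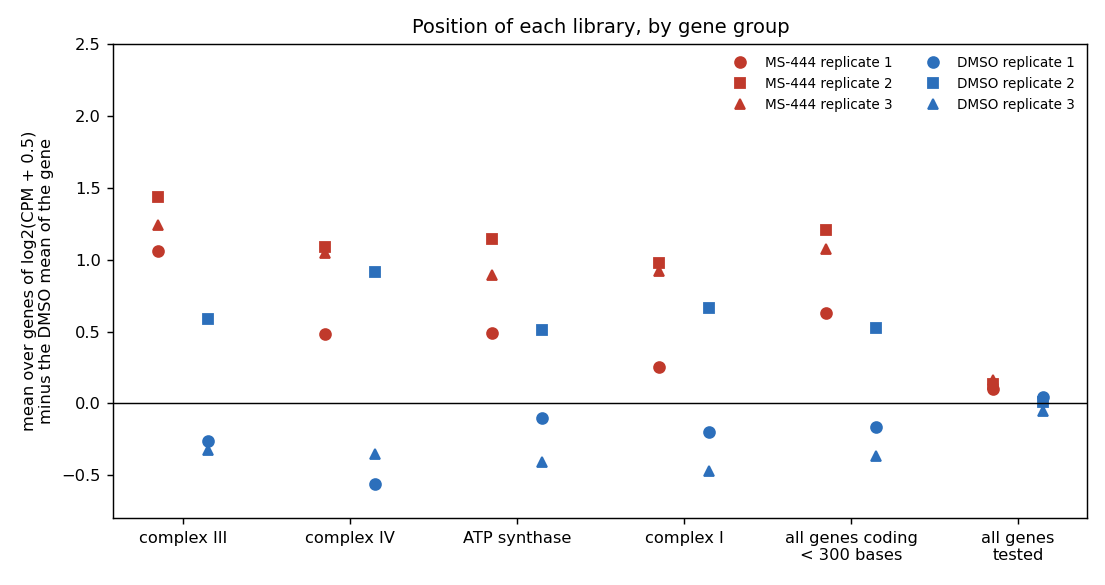
Mean over genes of log2(CPM + 0.5) minus the DMSO mean of the gene, for each library and gene group, with MS-444 left (red) and DMSO right (blue). DMSO replicate 2 (blue square) stands above the other DMSO libraries in complexes III and IV, ATP synthase, complex I and genes with a coding length under 300 bases, and near them over all genes tested.

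HuR is known to bind AU-rich stretches in the 3′ untranslated regions of its targets, so the regions of the members were searched for AUUUA in the RNA sense, in 1 GENCODE transcript per gene. The pentamer occurred in 14 of 41 members with such a region, or 34.1%, where the median region was 156 bases long. It occurred in 67.4% of 10268 tested genes, whose median region was 925 bases, and in 24.9% of the 2102 tested genes with a region under 300 bases. Per kilobase, members held 2.51 matches and all tested genes 1.94. It was found in 5 of 13 members that rose, 1 of 2 that fell and 8 of 22 that did not pass. The longer UAUUUAU occurred in 2 members, or 4.88%, in 27.6% of all tested genes and in 4.62% of those with a region under 300 bases. The matches in members that rose or fell are shown with up to 25 bases of context, 5′ to 3′, with AUUUA in capitals. Neighbouring matches in Uqcrfs1 and in Cox7b share context.
Atp5h, first base of AUUUA at base 41 after the stop codon: gaaauaaaacAUUUAaauagugcug
Atp5s, first base of AUUUA at base 322 after the stop codon: ccuuacaauaAUUUAcaccacauug
Uqcrc2, first base of AUUUA at base 12 after the stop codon: acaugcguguAUUUAaagcucagcc
Uqcrc2, first base of AUUUA at base 207 after the stop codon: gucagcaaguAUUUAuuaaaugcuu
Uqcrfs1, first base of AUUUA at base 90 after the stop codon: agguugguugAUUUAaaauauuuaa
Uqcrfs1, first base of AUUUA at base 99 after the stop codon: gauuuaaaauAUUUAagaauuguua
Cox7b, first base of AUUUA at base 190 after the stop codon: gugacuucucAUUUAuuuaagcugu
Cox7b, first base of AUUUA at base 194 after the stop codon: cuucucauuuAUUUAagcuguauug
Cox7b, first base of AUUUA at base 590 after the stop codon: cuuccuaguaAUUUAacuguugcug
Cox7c, first base of AUUUA at base 5 after the stop codon: ggauAUUUAauucaucccu
A match describes these letters in the chosen transcript and is not a binding site.

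In complex III, 3 of 8 members rose, 1 fell and 4 did not pass, with a median log2 fold change of 1.51. The shares over all genes tested were 14.4% higher and 11.1% lower. Among the small subunits around the core, Uqcrq, which lies beside the cytochrome b subunit, measured 35.5, 63.0 and 53.6 CPM in MS-444 replicates 1, 2 and 3 and 5.60, 17.3 and 9.19 CPM in DMSO replicates 1, 2 and 3. All MS-444 libraries were above all DMSO libraries, and the log2 fold change was 2.22 (SE 0.42, adjusted p = 0.0071). Uqcr10, another small subunit, measured 20.1, 23.3 and 20.9 CPM in MS-444 and 2.4, 12 and 4.59 CPM in DMSO. The MS-444 libraries lay close together and above a wide DMSO spread, and the log2 fold change was 1.71 (SE 0.49, adjusted p = 0.030).

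The Rieske iron-sulfur protein Uqcrfs1, which takes electrons from ubiquinol, measured 29.7, 35.8 and 40.3 CPM in MS-444 and 16.0, 10.4 and 7.40 CPM in DMSO. The groups did not overlap, and Uqcrfs1 rose by 1.67 on the log2 scale (SE 0.35, adjusted p = 0.010). Of the core proteins, which face the matrix, Uqcrc2 measured 40.7, 31.7 and 21.8 CPM in MS-444 and 67.6, 62.2 and 63.8 CPM in DMSO. Its MS-444 libraries were all below its DMSO libraries, and the log2 fold change was -1.04 (SE 0.29, adjusted p = 0.027). Its partner Uqcrc1 measured 13.2, 12.2 and 8.49 CPM in MS-444 and 7.20, 2.76 and 3.57 CPM in DMSO. The groups were apart, with MS-444 above, but at 1.36 on the log2 scale (SE 0.46) Uqcrc1 did not pass (adjusted p = 0.051). It was called higher under 9 of 17 alternatives, among them DESeq2 (adjusted p = 0.041), limma at a pseudocount of 1 CPM (adjusted p = 0.042) and library totals (adjusted p = 0.032).

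Uqcr11, a small subunit, measured 5.13, 5.38 and 3.88 CPM in MS-444 and 0, 2.3 and 0.510 CPM in DMSO, and did not pass either (log2 fold change 2.14, SE 0.73, adjusted p = 0.053). Under 6 of 16 alternatives Uqcr11 was called higher, among them DESeq2 (adjusted p = 0.039), and without DMSO replicate 2 its log2 fold change was 3.82 (adjusted p = 0.019). Uqcrh, the acidic hinge protein near cytochrome c1, had the highest level per kilobase of the complex in DMSO, at 91.9 ± 35.9 CPM per kilobase in MS-444 and 61.3 ± 53.0 in DMSO (SD, n = 3 each). Uqcrh reached 67.0 CPM in DMSO replicate 2, above all MS-444 libraries, and did not pass (log2 fold change 0.58, SE 0.54, adjusted p = 0.45). Uqcrb, which contacts the ubiquinone pocket, overlapped between the groups, at 2.56 to 6.27 CPM in MS-444 and 1.28 to 4.37 CPM in DMSO. Leaving out 1 library ended 3 of the 4 calls. Uqcr10 lost its call without DMSO replicate 3 (log2 fold change 1.5, adjusted p = 0.091) and without MS-444 replicate 1 (1.70, adjusted p = 0.066), 2 (1.59, adjusted p = 0.10) or 3 (1.69, adjusted p = 0.091), and after offsets for transcript length and GC content (0.90, adjusted p = 0.14). Uqcrfs1 lost its call without MS-444 replicate 3 (1.52, adjusted p = 0.0503). Uqcrc2 lost its call without DMSO replicate 2 (-1.07, adjusted p = 0.052) or 3 (-1.05, adjusted p = 0.056) and without MS-444 replicate 2 (-1.10, adjusted p = 0.082) or 3 (-0.87, adjusted p = 0.097).

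In complex IV, 3 of the 13 members tested rose (23.1%), 1 fell (7.69%) and 9 did not pass, with a median log2 fold change of 0.94. Over all genes tested 14.4% were higher and 11.1% lower. Of all tested genes with a coding length under 300 bases 36.7% rose, and of those from 300 to 450 bases 27.3%. Cox4i1, the common isoform of the largest nuclear subunit, where ATP is known to bind and inhibit the enzyme, measured 54.6, 88.7 and 79.8 CPM in MS-444 and 14.4, 28.1 and 8.68 CPM in DMSO. The groups did not overlap, and Cox4i1 rose by 2.11 on the log2 scale (SE 0.42, adjusted p = 0.0081). Cox7c, a small membrane subunit, measured 23.4, 23.3 and 21.4 CPM in MS-444 and 3.60, 6.68 and 5.87 CPM in DMSO. It rose by 2.04 (SE 0.35, adjusted p = 0.0054), and its MS-444 libraries lay close together. Cox7b, another small membrane subunit, measured 99.6, 121 and 107 CPM in MS-444 and 40, 48.3 and 20.2 CPM in DMSO, and rose by 1.59 (SE 0.33, adjusted p = 0.0097).

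Cox7a2l, related in sequence to the Cox7a subunits and known to join complexes III and IV into a supercomplex, went the other way. Cox7a2l measured 33.3, 42.1 and 40.3 CPM in MS-444 and 55.6, 130 and 70.4 CPM in DMSO, with all MS-444 libraries below all DMSO libraries. Its log2 fold change was -1.14 (SE 0.34, adjusted p = 0.034). Cox7a2l lost its call without DMSO replicate 2 (-0.71, adjusted p = 0.12) and without MS-444 replicate 1 (-1.10, adjusted p = 0.082), 2 (-1.27, adjusted p = 0.082) or 3 (-1.22, adjusted p = 0.094), and with library totals in place of TMM scaling (-0.96, adjusted p = 0.061).

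Cox8a, a small membrane subunit, had the highest level per kilobase of all members, at 1008 ± 202 CPM per kilobase in MS-444 and 522 ± 277 in DMSO (SD, n = 3 each). Cox8a measured 432, 649 and 582 CPM in MS-444 and 145, 448 and 268 CPM in DMSO, so that DMSO replicate 2 overlapped MS-444 replicate 1, and it did not pass (log2 fold change 0.95, SE 0.37, adjusted p = 0.080). Library totals (adjusted p = 0.044), no filter (adjusted p = 0.019) and leaving out DMSO replicate 2 (adjusted p = 0.024) each made Cox8a a call. Cox6b2, the isoform known from testis of the subunit on the outer face, measured 162, 390 and 415 CPM in MS-444 and 74.4, 217 and 79.1 CPM in DMSO. Its groups overlapped through DMSO replicate 2, and it did not pass (log2 fold change 1.38, SE 0.47, adjusted p = 0.051). Under 8 of 17 alternatives Cox6b2 was called higher, among them DESeq2 (adjusted p = 0.015), limma at 1 CPM (adjusted p = 0.040) and library totals (adjusted p = 0.033). The other tested members that did not pass were Cox5a and Cox5b, which are made in 1 isoform each in mammals, Cox6c, and Cox6a1, Cox6a2, Cox6b1 and Cox7a2, with log2 fold changes from -1.26 for Cox6a2 to 0.99 for Cox6a1. In each of those 7 the groups overlapped. Without DMSO replicate 2, 9 members of complex IV rose and 0 fell.

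The alternative isoforms Cox4i2, Cox7a1, Cox7b2 and Cox8c were too low to be tested. Cox4i2, known from lung, had 4, 1 and 9 counts in MS-444 and 0, 2 and 0 counts in DMSO. Cox7b2 had 4, 1 and 4 counts in MS-444 and 0 in each DMSO library. Cox7a1, known from heart and muscle, had 0 to 7 counts in MS-444 and 0 to 4 in DMSO, and Cox8c had 2 to 5 counts in MS-444 and 1 to 3 in DMSO.

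**Figure D3:**
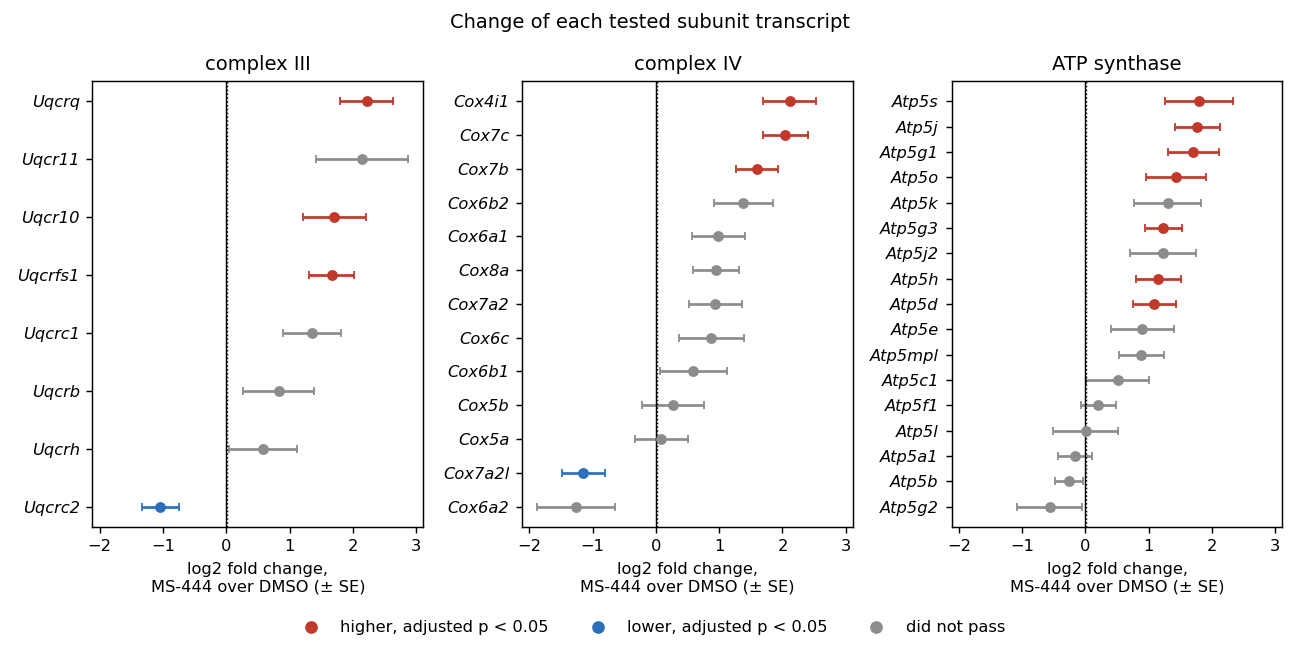
Log2 fold change, MS-444 over DMSO, of each tested member with its standard error as bars, by complex, in red for members that rose, blue for members that fell and grey for those that did not pass; the dotted line is the median of all genes tested. The members span -1.26 for Cox6a2 to 2.22 for Uqcrq.

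In ATP synthase, 7 of 17 members rose, 0 fell and 10 did not pass, with a median log2 fold change of 1.09. Among the falls there were also 0 by edgeR at an unadjusted p under 0.05, by DESeq2 and by limma. All genes tested gave 14.4% higher and 11.1% lower. In the peripheral stalk, which holds the catalytic head still, 3 of 4 members rose. In the c ring, which turns as protons pass, 2 of 3 rose. The F1 head had 1 of 5, and the membrane subunits 0 of 4. These parts are small, and differences between them were not tested. Of the stalk and c-ring calls, only that of Atp5j held when any library was left out. Atp5j measured 17.6, 17 and 18.2 CPM in MS-444 and 3.60, 6.22 and 5.36 CPM in DMSO, and rose by 1.77 (SE 0.36, adjusted p = 0.0087). Its MS-444 libraries agreed closely and none came near the DMSO range. Atp5h measured 65.9, 75.6 and 51.9 CPM in MS-444 and 16.8, 42.8 and 26.5 CPM in DMSO, and rose by 1.15 (SE 0.35, adjusted p = 0.037). Atp5o, the subunit named for its link to oligomycin sensitivity, measured 24.2, 75.0 and 38.3 CPM in MS-444 and 18.8, 23.7 and 8.68 CPM in DMSO. The groups of Atp5o were apart by a small gap, and it rose by 1.43 (SE 0.47, adjusted p = 0.049). The fourth stalk subunit, Atp5f1, overlapped between groups at 141 to 196 CPM in MS-444 and 101 to 172 CPM in DMSO, and did not pass (log2 fold change 0.21).

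Atp5g1, Atp5g2 and Atp5g3 encode the same mature c-ring protein behind different import sequences. Atp5g1 measured 120, 170 and 166 CPM in MS-444 and 49.6, 70.0 and 20.4 CPM in DMSO, and rose by 1.71 (SE 0.40, adjusted p = 0.015). Atp5g3 measured 64.5, 75.6 and 71.8 CPM in MS-444 and 22.8, 41.2 and 25.8 CPM in DMSO, and rose by 1.23 (SE 0.30, adjusted p = 0.015). In both genes the groups did not overlap. Atp5g2 measured 8.79, 20.9 and 23.5 CPM in MS-444 and 11.2, 46.5 and 20.9 CPM in DMSO, where the groups overlapped, and did not pass (log2 fold change -0.57, SE 0.52, adjusted p = 0.44). With a correction for transcript GC content and length, Atp5g2 was called lower (-1.52, adjusted p = 0.019), whereas Atp5h (0.66, adjusted p = 0.14), Atp5d (0.48, adjusted p = 0.29) and Atp5o (0.99, adjusted p = 0.0505) lost their calls.

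The catalytic F1 head gave 1 call among 5 members. Atp5d, the delta subunit of the central stalk, measured 16.5, 24.2 and 25.2 CPM in MS-444 and 13.2, 9.67 and 8.42 CPM in DMSO, and rose by 1.09 (SE 0.34, adjusted p = 0.041). Atp5b, the catalytic beta subunit, had the highest level per kilobase of the enzyme in DMSO, at 208 ± 15.9 CPM per kilobase in MS-444 and 250 ± 38.9 in DMSO (SD, n = 3 each). Atp5b measured 419, 413 and 364 CPM in MS-444 and 562, 419 and 455 CPM in DMSO, and did not pass (log2 fold change -0.26, SE 0.22, adjusted p = 0.39). Atp5a1, the alpha subunit, had a log2 fold change of -0.16, Atp5c1, the gamma subunit of the rotor, 0.51, and Atp5e, the epsilon subunit, 0.90, and none of them passed. Atp5s, a coupling factor also known as factor B, measured 5.13, 2.99 and 3.64 CPM in MS-444 and 0.800, 1.61 and 0.765 CPM in DMSO, and rose by 1.80 (SE 0.54, adjusted p = 0.036). The membrane subunits Atp5j2, Atp5k, Atp5l and Atp5mpl did not pass, with log2 fold changes from 0.00 for Atp5l to 1.30 for Atp5k.

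Of the 7 calls in ATP synthase, 6 were lost on leaving out 1 library. Atp5g1 lost its call without MS-444 replicate 2 (1.55, adjusted p = 0.060) or 3 (1.60, adjusted p = 0.064), and Atp5g3 without the same libraries (1.12, adjusted p = 0.074, and 1.18, adjusted p = 0.067). Atp5d lost its call without DMSO replicate 2 (1.04, adjusted p = 0.10) or 3 (0.96, adjusted p = 0.11) and without MS-444 replicate 2 (0.96, adjusted p = 0.15) or 3 (0.94, adjusted p = 0.14). Atp5o lost its call without DMSO replicate 1 (1.5, adjusted p = 0.071) or 3 (1.10, adjusted p = 0.13) and without MS-444 replicate 2 (0.82, adjusted p = 0.27) or 3 (1.51, adjusted p = 0.10). Atp5h lost its call without DMSO replicate 1 (0.89, adjusted p = 0.066) or 3 (1.09, adjusted p = 0.095) and without MS-444 replicate 1 (1.09, adjusted p = 0.088), 2 (0.96, adjusted p = 0.15) or 3 (1.25, adjusted p = 0.080). Atp5s lost its call without DMSO replicate 1 (1.66, adjusted p = 0.058) or 3 (1.58, adjusted p = 0.10) and without MS-444 replicate 1 (1.53, adjusted p = 0.097), 2 (1.90, adjusted p = 0.084) or 3 (1.81, adjusted p = 0.095). Other settings ended calls as well: Atp5s lost its call with DESeq2 (adjusted p = 0.074), with limma at a pseudocount of 0.1 CPM (adjusted p = 0.054) and without a filter (adjusted p = 0.095), and Atp5d without a filter (adjusted p = 0.079). Atp5o lost its call with median-ratio scaling (adjusted p = 0.05005), a minimum count of 30 (adjusted p = 0.0543) and limma at 1 CPM (adjusted p = 0.0540) or 0.1 CPM (adjusted p = 0.059).

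Isoforms that fill the same place were compared as shares of their summed counts, for 8 shares, by a two-sided exact permutation test whose smallest p is 0.1 with 3 libraries against 3. Atp5g1 gave 62.1%, 63.8% and 63.5% of c-ring counts in MS-444 and 59.3%, 44.4% and 30.4% in DMSO (exact p = 0.1). Atp5g2 gave 4.55%, 7.84% and 9.0% in MS-444 and 13.4%, 29.5% and 31.2% in DMSO (exact p = 0.1). Atp5g3 gave 29.7% ± 3.17 in MS-444 and 30.6% ± 6.78 in DMSO (SD, n = 3 each, exact p = 1). The spread of each of the 3 shares was wider among the DMSO libraries, a difference that was not tested.

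Cox6b2 gave 83.1%, 84.5% and 85.6% of the Cox6b counts in MS-444 and 81.2%, 74.1% and 78.3% in DMSO (exact p = 0.1), so that the isoform known from testis was the larger part in every library. Cox6a2, known from heart and muscle, gave 8.47%, 2.4% and 4.28% of the Cox6a counts in MS-444 and 7.14%, 18.5% and 26.6% in DMSO (exact p = 0.2), with an overlap through DMSO replicate 1. The shares of Cox4i2 (exact p = 0.2), Cox7a2 (exact p = 0.9) and Cox8c (exact p = 0.9) overlapped too. Adjusted over the 8 shares by Benjamini-Hochberg, the smallest exact permutation p was 0.27.

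**Figure D4:**
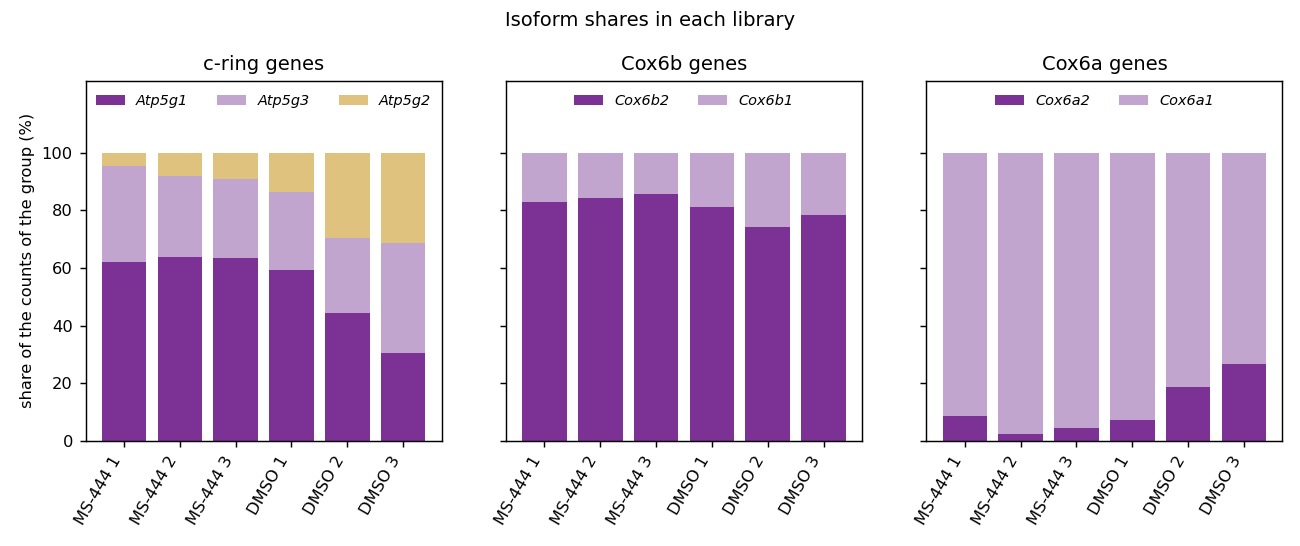
Shares of the counts of the c-ring, Cox6b and Cox6a genes in each library, in percent, as bars that stack to 100, with MS-444 libraries left and DMSO libraries right. Atp5g2 takes at most 9.0% in MS-444 and at least 13.4% in DMSO, and Cox6b2 exceeds Cox6b1 in every library.

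Respiratory genes are known to carry sites for the ETS factor GABP and for NRF1 near their starts. RefSeq promoter windows of build GRCm38.p6 were matched for 32 of the 42 members. Each ran from 250 bases before to 50 after the first listed start of its gene. Atp5c1, Atp5d and Atp5j had 2 listed starts, of which only the first was searched. Searched on both strands, CCGGAAG, an ETS core, was in 9 of the 32 windows, or 28.1%, against 18.3% of the windows of tested genes and 9.12% of all 27025. GCGCANGCG, the core of the NRF1 palindrome, was in 9 windows, or 28.1%, against 14.4% of those of tested genes and 6.47% of all. AAGATGGCG, for YY1, was in 1 window, or 3.13%, against 3.23% of those of tested genes. GGGCGG, for SP factors, was in 12, or 37.5%, against 61.9% of those of tested genes, and TATAAA in 2, or 6.25%, against 7.69%. No window was matched for Uqcrq or Cox4i1. Either the ETS or the NRF1 motif was in 13 of the 32 windows, or 40.6%, against 29.7% of those of tested genes. By call, either motif was in 3 of 11 members that rose, 0 of 1 that fell and 10 of 18 that did not pass. The windows of the 3 that rose are shown 5′ to 3′ on the strand of the gene, with ETS and NRF1 matches in capitals, because all 3 are ATP synthase genes described above.
Atp5g3, GRCm38.p6 chr2:73911277-73911576, minus strand: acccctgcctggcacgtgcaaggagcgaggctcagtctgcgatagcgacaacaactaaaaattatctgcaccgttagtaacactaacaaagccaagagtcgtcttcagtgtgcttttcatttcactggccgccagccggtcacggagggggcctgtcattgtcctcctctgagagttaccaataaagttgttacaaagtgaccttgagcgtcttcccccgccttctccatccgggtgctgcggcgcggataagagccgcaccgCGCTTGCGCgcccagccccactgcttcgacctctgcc
Atp5h, GRCm38.p6 chr11:115419870-115420169, minus strand: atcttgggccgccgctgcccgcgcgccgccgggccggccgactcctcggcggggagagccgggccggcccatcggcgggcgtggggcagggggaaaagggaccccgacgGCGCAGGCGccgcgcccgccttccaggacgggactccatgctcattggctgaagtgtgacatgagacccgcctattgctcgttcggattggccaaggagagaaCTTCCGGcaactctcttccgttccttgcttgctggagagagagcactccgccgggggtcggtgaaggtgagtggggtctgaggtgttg
Atp5o, GRCm38.p6 chr16:91931581-91931880, minus strand: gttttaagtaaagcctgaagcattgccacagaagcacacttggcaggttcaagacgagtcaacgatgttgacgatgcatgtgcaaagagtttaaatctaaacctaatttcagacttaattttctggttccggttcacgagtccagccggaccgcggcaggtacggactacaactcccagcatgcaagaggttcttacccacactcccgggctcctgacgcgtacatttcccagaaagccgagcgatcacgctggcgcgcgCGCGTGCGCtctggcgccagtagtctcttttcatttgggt
The NRF1 match begins 13 bases from the start in Atp5g3 and 10 bases from it in Atp5o, and lies at -141 in Atp5h, whose ETS match lies at -38. A match describes letters in the window and is not a site of binding.

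The members are short genes, and short genes as a whole differed between the groups. Among all tested genes with a coding length under 300 bases, 36.7% of 207 rose, 1.45% fell and the median log2 fold change was 0.83. Of the 16 members in that range 4 rose, or 25%, with a median of 1.09. From 300 to 450 bases, 3 of 10 members rose and 1 fell, against 27.3% of 527 genes that rose and 4.93% that fell, and from 450 to 900 bases 6 of 8 members rose, against 20.5% of 2090 genes. From 900 to 1500 bases 0 of 2 members rose and 1 fell, against 14.2% of 2939 genes that rose and 13.8% that fell. At 1500 bases and over, 0 of 2 members passed and both log2 fold changes were below 0, against 8.83% of 4724 genes that rose and 12.5% that fell. Across genes, which are not independent replicates, log2 fold change and log2 coding length had a Pearson r of -0.32 and a Spearman rho of -0.27 over 38 members, and a Pearson r of -0.21 over 10487 genes, all from the same libraries. Short genes also stood high in DMSO replicate 2: their mean log2 position was 0.63, 1.20 and 1.08 in the MS-444 libraries and -0.16, 0.53 and -0.36 in the DMSO libraries. With the correction for transcript GC content and length, 9 members rose, 3 fell and their median log2 fold change was 0.41, while 2035 of all genes rose and 1592 fell. The part of length in the results was not tested beyond these values.

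**Figure D5:**
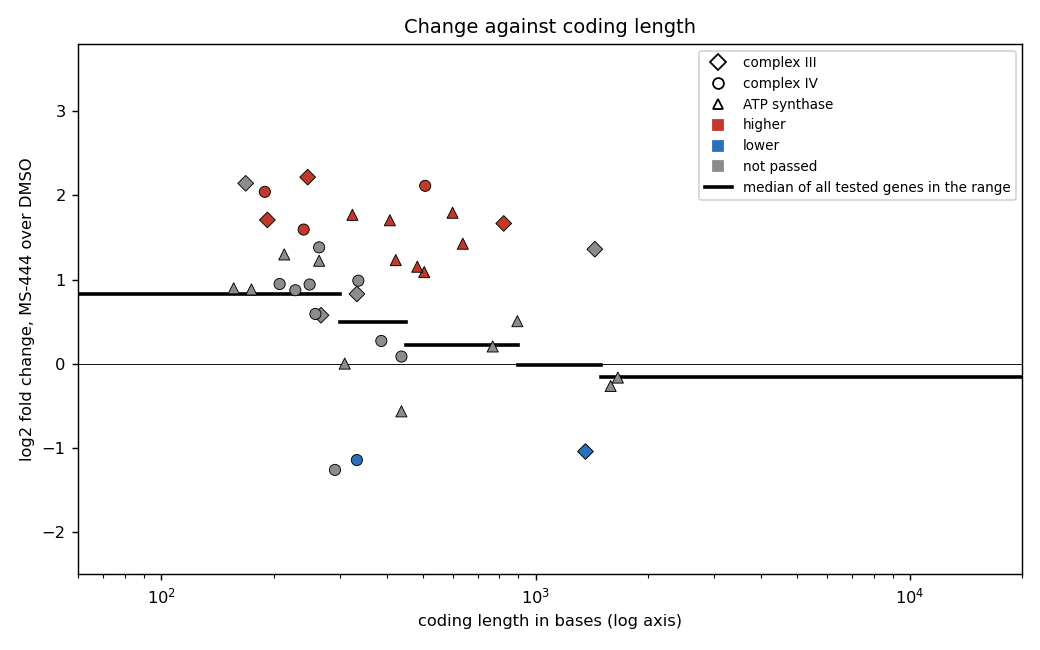
Log2 fold change, MS-444 over DMSO, of the tested members against coding length in bases on a log axis, with the complex as marker shape, the call as colour and black bars for the median of all tested genes in each length range. The median of all genes falls along the axis, starting at 0.83 under 300 bases, and the members between 450 and 900 bases lie at or above 0.21.

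Genes named for complex I, the enzyme upstream of complex III, were set beside the members with the same fit. They were taken by symbols that start with Nduf, a letter a, b, c, s or v and a digit, and not by their place in an enzyme. Ndufa4 was among them, and so was Ndufb1-ps, whereas such pseudogene symbols were left out of the members. Of 32 tested, 8 rose, 1 fell and 23 did not pass, with a median log2 fold change of 0.86. Of all genes tested, 14.4% rose and 11.1% fell. The difference between the complex I genes and the members was not tested. Of the 13 protein genes of the mitochondrial genome, 1 rose, 0 fell and 12 did not pass, with a median of 0.38. Of the 6 mitochondrially encoded partners in complexes III, IV and ATP synthase 0 passed edgeR's test, DESeq2 or limma, and 1 was higher at an unadjusted p under 0.05. The most abundant of them, mt-Cytb, the cytochrome b of complex III, averaged 18963 ± 3703 CPM in MS-444 and 12337 ± 2194 CPM in DMSO (SD, n = 3 each), at 0.62 on the log2 scale (SE 0.23, adjusted p = 0.073).

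Among assembly factors of complex III, the complex III subunit Cyc1 and genes of cytochrome c, 3 of 8 rose and 0 fell by edgeR. Falls also numbered 0 at an unadjusted p under 0.05, by DESeq2 and by limma. Of all genes tested, 14.4% rose and 11.1% fell. Uqcc3, which helps to build complex III around cytochrome b, measured 35.2, 34.4 and 34.9 CPM in MS-444 and 2.4, 5.52 and 1.79 CPM in DMSO, and rose by 3.37 (SE 0.43, adjusted p = 0.0026). The groups of Uqcc3 lay far apart, and its log2 fold change was above that of every member. Cyc1, cytochrome c1, is a subunit of complex III that the naming rule left out of the members. Cyc1 rose by 1.29 (SE 0.39, adjusted p = 0.035), and Hccs, which attaches haem to c-type cytochromes, by 1.03 (SE 0.31, adjusted p = 0.036). Hccs lost its call on leaving out any library but DMSO replicate 1, with values down to 0.79 (adjusted p = 0.11), and Cyc1 when MS-444 replicate 2 or 3 or DMSO replicate 1 or 3 was omitted, down to 1.05 (adjusted p = 0.15).

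Among complex IV assembly factors 8 of 22 rose and 2 fell, against 14.4% that rose and 11.1% that fell of all genes tested. Coa7 averaged 23.6 ± 4.08 CPM in MS-444 and 5.25 ± 0.377 CPM in DMSO (SD, n = 3 each), and rose by 2.17 (SE 0.34, adjusted p = 0.0040). Coa6, which works in copper delivery, averaged 21.3 ± 8.70 CPM in MS-444 and 3.40 ± 1.71 CPM in DMSO, and rose by 2.69 (SE 0.48, adjusted p = 0.0061). Cox10, which makes haem for complex IV, fell to 81.7 ± 14.2 CPM in MS-444, against 186 ± 37.0 CPM in DMSO, a log2 difference of -1.18 (SE 0.26, adjusted p = 0.012). Without MS-444 replicate 2, Cox10 lost its call (-1.19, adjusted p = 0.0503). Of 6 assembly factors of ATP synthase 0 passed by edgeR, DESeq2 or limma, and 1 was higher at an unadjusted edgeR p under 0.05. Tmem242, the highest in mean CPM over all libraries, was at 0.75 on the log2 scale (SE 0.38, adjusted p = 0.17).

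Among carriers and channels that exchange ADP, ATP and phosphate, Vdac3, a channel of the outer membrane, averaged 177 ± 6.66 CPM in MS-444 and 402 ± 89.2 CPM in DMSO (SD, n = 3 each), and fell by 1.18 on the log2 scale (SE 0.24, adjusted p = 0.0089). Its MS-444 libraries were all below its DMSO libraries. Slc25a5, the most abundant of the list and an ADP/ATP carrier, did not pass (-0.30, adjusted p = 0.45).

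Among regulators of respiratory gene transcription, 5 of 12 rose and 1 fell, against 14.4% that rose and 11.1% that fell of all genes tested. Nrf1, whose motif was searched above, was lower in MS-444 but did not pass (log2 fold change -0.62, SE 0.27, adjusted p = 0.11). Nrf1 measured 62.6, 61.5 and 58.2 CPM in MS-444 and 113, 68.4 and 99.8 CPM in DMSO, with all MS-444 libraries below all DMSO libraries. Yy1 averaged 332 ± 80.2 CPM in MS-444 and 89.2 ± 24.6 CPM in DMSO (SD, n = 3 each), and rose by 1.90 (SE 0.30, adjusted p = 0.0040). Pprc1, a coactivator, rose by 1.12 (SE 0.29, adjusted p = 0.019), and Tfb1m, which methylates mitochondrial ribosomal RNA, fell by 1.53 on the log2 scale (SE 0.36, adjusted p = 0.014). Gabpa, the DNA-binding part of GABP, averaged 461 ± 250 CPM in MS-444 and 151 ± 96.0 CPM in DMSO, and rose by 1.62 (SE 0.48, adjusted p = 0.034). Gabpa lost its call on leaving out any library but DMSO replicate 1, with values down to 1.05 (adjusted p = 0.12). Pprc1 lost its call without DMSO replicate 3 (0.97, adjusted p = 0.059) or MS-444 replicate 2 (1.06, adjusted p = 0.083) or 3 (1.0, adjusted p = 0.087), and Tfb1m without DMSO replicate 2 (-1.28, adjusted p = 0.053) or MS-444 replicate 3 (-1.54, adjusted p = 0.058).

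Of 3 genes that are also known by other symbols starting with Atp5 but fall outside the naming rule, 2 rose and 1 fell. Of all genes tested, 14.4% rose and 11.1% fell. Atpif1, which inhibits the enzyme when it runs backwards, measured 38.1, 42.7 and 43.9 CPM in MS-444 and 9.99, 15.7 and 10.5 CPM in DMSO, and rose by 1.78 (SE 0.31, adjusted p = 0.0054). Usmg5, a small subunit that helps dimers form, averaged 19.5 ± 6.87 CPM in MS-444 and 3.37 ± 0.924 CPM in DMSO (SD, n = 3 each), and rose by 2.51 (SE 0.43, adjusted p = 0.0053). Dmac2, an assembly factor known from complex I, was lower, at -1.09 on the log2 scale (SE 0.27, adjusted p = 0.018), and lost its call without DMSO replicate 3 (-0.93, adjusted p = 0.057) or MS-444 replicate 2 (-1.13, adjusted p = 0.066) or 3 (-1.11, adjusted p = 0.065).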

How the data were processed

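The deposited values were raw counts, in whole numbers, for 29139 genes in 1 column per library, and the authors had not normalized them. The submitters' processing notes name HISAT2, Cufflinks 2.2.1 and the build mm9; how reads were counted, by strand or between similar genes, has no statement in the labels or notes. Many subunit genes have processed pseudogenes, so that their counts are uncertain where such reads were split. GENCODE M21 gave 29075 identifiers a symbol, and coding and 3′ untranslated lengths came from the shortest of the best ranked transcripts.

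Genes with enough counts by edgeR's filter (minimum 10) were kept, 11864 in all, with 98.8% to 99.3% of the counts. Differences, MS-444 over DMSO, were tested two-sided with the quasi-likelihood test of edgeR after TMM scaling (factors 0.933 to 1.11), with Benjamini-Hochberg adjustment over all genes tested and a threshold of 0.05. Standard errors were derived from that test. CPM are counts scaled to a common library total after TMM, and CPM per kilobase divides by transcript length. PCR reads are not independent molecules, so that counting error understates the error. Scripts were tested on simulated data. The versions used were edgeR 4.0.16, DESeq2 1.42.0, limma 3.58.1, mgcv 1.9.3 and scipy 1.17.1 with R 4.3.3.

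The members and the lists of related genes were chosen with earlier results of these data known. Members past the threshold and the most abundant of each complex are given in full, and of each list up to 3 genes with the smallest adjusted p and the most abundant. Nrf1 is given as well, because its motif was searched. A result of the list on ADP, ATP and phosphate exchange is not reported here. The alternatives were other scalings and filters, DESeq2, limma with pseudocounts of 1 and 0.1 CPM, a replicate block, offsets for transcript length and GC content, and leaving out each library; the same correction with the longest transcripts was chosen after seeing the data.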

Additional observations from a re-analysis of the deposited data

How the results depend on the processing

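The count of members that rose was 12 to 15 with median-ratio scaling, a minimum count of 30, DESeq2 and both limma fits, 17 without a filter and 18 with library totals. With library totals, 1 member fell, 2179 genes rose and 881 fell, against 1706 and 1322 with TMM, and the median of all genes moved to 0.20. Corrections for GC content and length gave 9 members that rose, or 11 with the longest transcripts, and 3 that fell in both. The labels do not say whether replicate numbers pair libraries across the groups. Deviations of same-numbered libraries correlated at 0.055, 0.371 and -0.10, and not every library correlated best with its own number. With 3 libraries per group these values cannot decide whether the libraries were paired. With the replicate block, 20 members rose, 2 fell, and 1971 genes rose and 1434 fell; with the block and the correction together, 11 members rose and 3 fell. Leaving out 1 library gave 5 to 22 members that rose, 0 to 3 that fell, 665 to 2119 genes that rose and 536 to 1526 that fell. The difference in share, MS-444 minus DMSO, then changed sign for Atp5g3 (-3.13 to 3.006 percentage points), Cox7a2 (-0.476 to 0.257) and Cox8c (-0.058 to 0.032). It kept its sign for the other shares. The causes were not tested. No member that passed changed sign under the alternatives in which it was tested, 17 for 14 of them and 16 for Atp5s, which a minimum count of 30 removed. Low counts limit Uqcr11, Atp5s and the untested isoforms most.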
